A study of Arabidopsis thaliana and Medicago truncatula and Solanum lycopersicum with 15 samples.

Results

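The regions described here lie on mitochondrial sequence and on the stretch of Arabidopsis chromosome 2 that holds a nuclear copy of it. Within each list, members were chosen by position. Every region on the sequence named mitochondria was 1 class, and every region on chromosome 2 with its midpoint between 3.2 and 3.5 Mb was the other. The first class held 482 regions in the 4 root tip lists and the second held 980 in all 8 Arabidopsis lists. Together these are 1462 of 246525 regions in those 8 lists, and the 14 lists of the whole series hold 753507. Mitochondrial regions numbered 115 and 115 in the sucrose replicates, against 132 and 120 in the INTACT root tip replicates. The 4 epidermal lists name no organelle sequence, so the mitochondrial class could not be compared there.

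Open chromatin was mapped by ATAC-seq, in which the transposase Tn5 cuts accessible DNA and tags the cut ends for sequencing. All plants of the 4 Arabidopsis groups were of the Col-0 strain, and each of these groups had 2 biological replicates. The sucrose group came from root tips of 1 cm whose nuclei were sedimented in sucrose, a crude preparation. Hair cells were purified from ADF8p:NTF/ACT2p:BirA plants and non-hair cells from GL2p:NTF/ACT2p:BirA plants, both from the fully differentiated root zone. The INTACT root tip group came from root tips of the same length in UBQ10p:NTF/ACT2:BirA plants. INTACT is an affinity capture in which a nuclear envelope protein (NTF) is biotinylated by BirA and the tagged nuclei are pulled out with streptavidin. Which nuclei are tagged follows from the promoter before NTF, which is constitutive for UBQ10p and epidermal for ADF8p and GL2p. Root tip plants of all species carried the constitutive transgenes per the series' design text. Ages were not given. Region lists hold no expression values, so the labelled cell types were not checked against marker genes. A genomic DNA sample was not analysed here.

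Plant mitochondria keep a genome of their own, which codes for parts of the respiratory chain, the ATP synthase, cytochrome c maturation and the organelle's ribosomes. A fixed list of 35 such genes was looked up in the TAIR10.1 gene table, which names 35 of them on the mitochondrial sequence. They include nad genes of complex I, cob of complex III, cox genes of complex IV and atp genes of the ATP synthase. Mitochondrial DNA is not wrapped in nucleosomes. Pieces of it are also found in nuclear chromosomes as nuclear mitochondrial sequences, and Arabidopsis chromosome 2 holds a very large one near its centromere. Short reads from such a copy and from the organelle can be near identical, and an aligner can then place them on either or on neither. Whether such reads were kept is not given in the sources used here, and neither is read depth. A region in the chromosome 2 window is therefore a place where the deposited list has a region, and the origin of its reads cannot be told apart.

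Region lists were of very different length outside the window, with 11819 and 15930 regions in the sucrose replicates, 52373 and 35679 in the hair replicates, 52278 and 31212 in the non-hair replicates and 23422 and 23812 in the INTACT root tip replicates. No depth is known behind these numbers. The p-values below come from permutations of lists, 2 a group, and are not corrected for depth. With 2 lists against 2, the smallest two-sided p that an exact permutation test can give is 0.33. Coordinates are in TAIR10, named in the submitters' processing notes, and regions were not placed in genes, exons or UTRs because no annotation of that build was used here.

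In the chromosome 2 window, sucrose lists held fewer, wider regions than every list from INTACT-purified nuclei. The window held 104 regions in each sucrose replicate. There were 135 and 127 in the hair replicates, 133 and 129 in the non-hair replicates, and 123 and 125 in the INTACT root tip replicates. Sucrose regions averaged 812 and 818 bp in width, hair regions 357 and 377 bp, non-hair regions 385 and 395 bp, and INTACT root tip regions 399 and 408 bp. Neither measure overlapped between the sucrose lists and the other 6. The median width was 572.5 bp in both sucrose replicates, against 295 and 319 bp in the INTACT root tip replicates. Each sucrose list held 22 regions over 1 kb in the window, and each of the other 6 held 6.

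These widths set how much of the window was covered. Sucrose regions covered 28.2% ± 0.146 of it, against 16.0% ± 0.0674 for hair, 17.0% ± 0.687 for non-hair and 16.7% ± 0.447 for INTACT root tip regions (SD, n = 2 lists each). Sucrose over INTACT root tip lists, covered length was 1.69-fold (log2 0.76), mean width 2.02-fold (log2 1.01) and the number of regions 0.839-fold (log2 -0.25). Each of these comparisons gave p = 0.33 in the exact permutation test, the smallest it can give with 2 lists a side, and 0.362 after Benjamini-Hochberg adjustment over 25 tests. With lists reduced to equal numbers of their widest regions, the difference in number turned to 0.75 on the log2 scale, covered length became 1.27 and mean width 0.53.

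**Figure D1:**
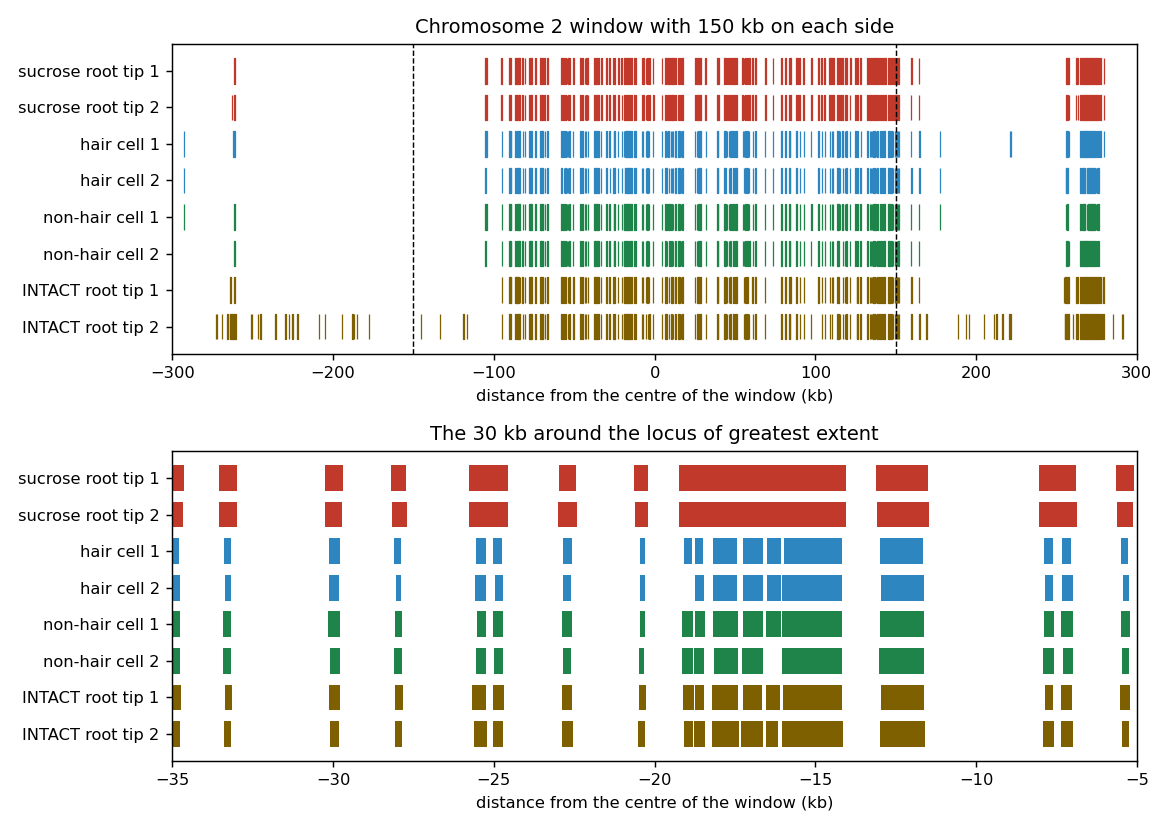
Regions of the 8 Arabidopsis lists (rows, sucrose on top) against distance from the centre of the chromosome 2 window in kb, with dashed lines at its limits in the upper panel, where each bar has a thin outline so that narrow regions stay visible. The lower panel shows 30 kb around the locus of greatest extent, where both sucrose lists have 1 region and the others have 5 or 6; the group of regions right of the second dashed line lies outside the window.

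Outside the window the sucrose lists moved to the other end in width and covered share, but still held the fewest regions. Per 100 kb of the rest of chromosome 2 they held 10.1 and 13.5 regions, against 20.3 to 43.9 in the other lists. On the rest of chromosome 2, sucrose regions averaged 277 ± 2.54 bp (SD, n = 2), hair regions 328 ± 9.02 bp, and non-hair regions 331 ± 17.0 bp. Single INTACT root tip lists averaged 382 and 353 bp there. Covered share there was 2.82% and 3.71% in the sucrose replicates, 14.7% and 9.53% in the hair replicates, 14.8% and 8.56% in the non-hair replicates, and 7.74% and 7.92% in the INTACT root tip replicates. Sucrose lists thus had the widest regions and the highest covered share of the 4 groups inside the window and the lowest of both outside it.

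Set against the rest of the chromosome within each list, the window was much fuller in the sucrose lists and hardly so in hair replicate 1 and non-hair replicate 1. Its covered share was 9.98 and 7.63 times that of the rest in the sucrose replicates. The ratio was 1.10 and 1.67 in the hair replicates, 1.18 and 1.93 in the non-hair replicates, and 2.12 and 2.15 in the INTACT root tip replicates. Mean width in the window was 2.91 and 2.97 times that of the rest in the sucrose replicates, and 1.05 to 1.21 times in the other 6 lists. Over the 8 lists, covered share (mean log2 ratio 1.31), regions per 100 kb (0.79) and mean width (0.52) were each higher in the window in 8 of 8 lists, though regions per 100 kb only 1.03-fold in hair replicate 1 and non-hair replicate 1. Each gave p = 0.00781 in an exact two-sided sign permutation test, the smallest possible with 8 lists, and 0.0651 after Benjamini-Hochberg adjustment. That test measures only how far the lists agree about this window. Every list has a replicate among the 8, so they are not 8 independent units. It does not say how unusual the window is on the chromosome, and the window was chosen with earlier results known. With equal numbers of the widest regions, regions per 100 kb gave 0.71 and an exact permutation p = 0.0547. The median gap between neighbouring regions was shorter in the window in 6 of 8 lists, with a mean log2 ratio of -0.64 and p = 0.102 in the same exact test. The 2 exceptions were hair replicate 1 and non-hair replicate 1, the longest lists, where it was 1.33 and 1.36 times that of the rest.

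**Figure D2:**
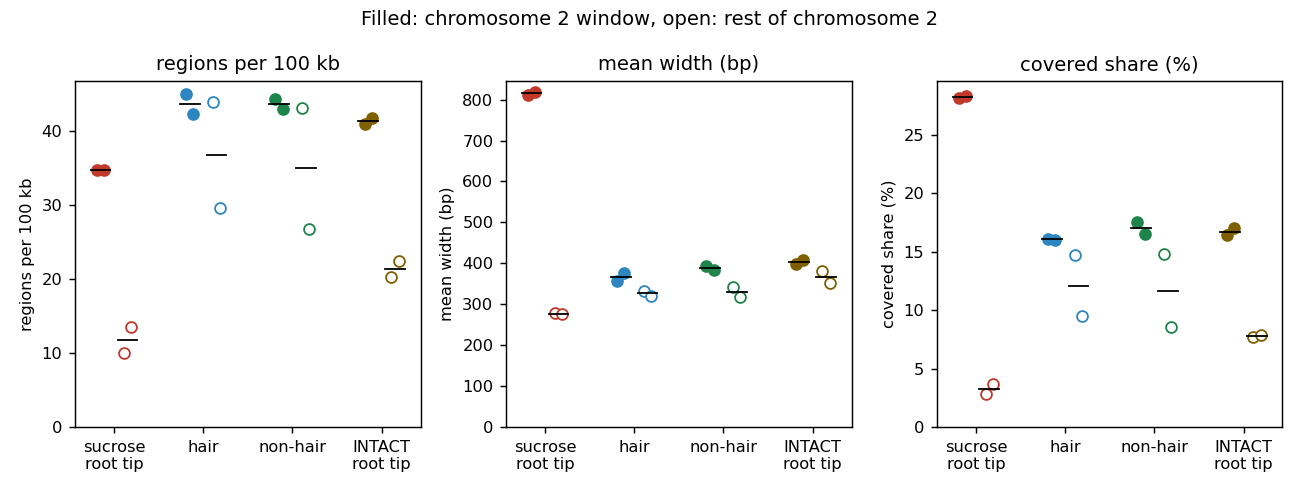
Regions per 100 kb, mean width in bp and covered share in percent for each list (points, 2 a group) with the group mean as a black bar; filled points are the chromosome 2 window and open points the rest of chromosome 2. Sucrose lists average 815 bp in the window and 277 bp outside it, while the other groups differ far less between the 2 places.

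The purification difference in mean width between window and rest came to 1.42 on the log2 scale, or 2.67-fold (sucrose minus INTACT root tip, each as window over rest). For covered share it was 2.03, or 4.09-fold, and for regions per 100 kb 0.62, or 1.53-fold. All had p = 0.33 in an exact permutation test, the smallest that 2 lists against 2 allow. This comparison of differences was chosen after the values were seen.

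Hair and non-hair lists differed little in the window. Their mean number of regions was 131 ± 5.66 in hair and 131 ± 2.83 in non-hair lists (SD, n = 2 each). Covered length was 48181 and 47895 bp in the hair replicates, against 52559 and 49646 bp in the non-hair replicates, a log2 difference of -0.089 with an exact permutation p = 0.33. The 2 groups did not overlap in covered length, but the difference was near the gap between the non-hair replicates. The 4 epidermal lists together had 131 ± 3.65 regions with a mean width of 379 ± 16.2 bp (SD, n = 4), against 124 ± 1.41 regions of 404 ± 6.21 bp in the INTACT root tip lists (SD, n = 2). Both differences, 0.079 and -0.094 on the log2 scale, gave an exact permutation p = 0.133, with 0.0667 as the smallest possible. Both turned with equal numbers of the widest regions, to -1.03 for the number and 0.45 for mean width.

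Single regions could be followed between lists where they overlapped one to one. Where exactly 1 sucrose region overlapped exactly 1 INTACT root tip region in the window, the sucrose region was the wider in 100% of 74 to 76 pairs, whichever replicates were paired. Over the 5 chromosomes the sucrose region was the wider in 3.70% and 12.2% of such pairs for sucrose replicate 1 and in 6.12% and 16.5% for sucrose replicate 2, against INTACT replicates 1 and 2 in that order. In the window the sucrose region reached a median of 129 to 142 bp farther at the left end and 123.5 to 135.5 bp farther at the right end. Its centre lay a median of 18.25 to 21.25 bp from that of its partner. The extra width was therefore close to equal on both sides of a shared centre. On the rest of chromosome 2, in 1504 to 2107 pairs, sucrose regions stopped short of their partners, by 44 to 66 bp at the left end and 40 to 71 bp at the right end.

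**Figure D3:**
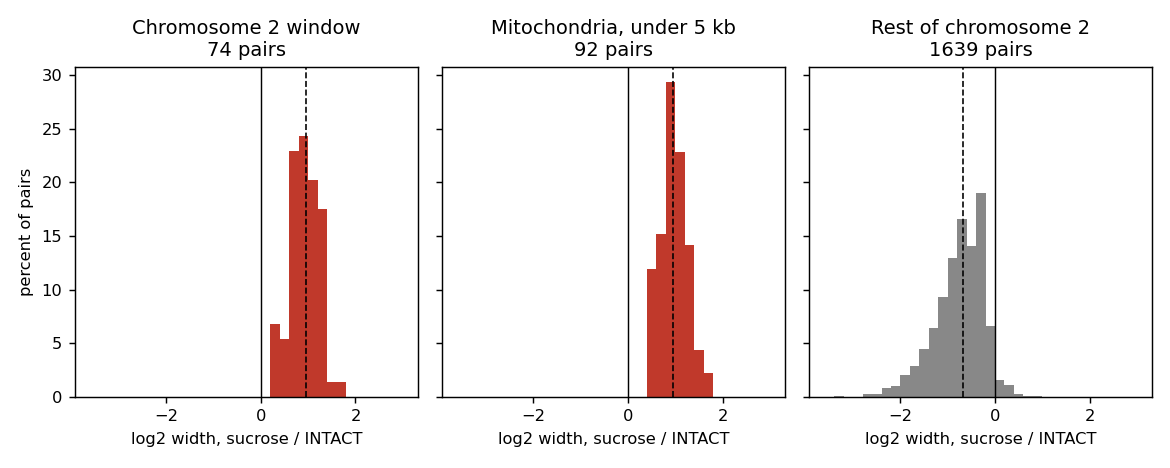
Log2 ratio of region width, sucrose replicate 1 over INTACT root tip replicate 1, for one-to-one overlapping pairs (histograms, percent of pairs), with a solid line at equal width and a dashed line at the median. The 74 pairs in the chromosome 2 window and 92 pairs on mitochondria all lie right of equal width, and most of the 1639 pairs on the rest of chromosome 2 lie left of it.

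Nearly all regions of the other lists lay within a sucrose region. In hair replicates 1 and 2, 134 of 135 and 126 of 127 window regions lay strictly inside a wider region of both sucrose lists, as did 132 of 133 and 128 of 129 in the non-hair replicates. In INTACT root tip replicates 1 and 2 the counts were 122 of 123 and 120 of 125. Over the 5 chromosomes this held for 0.498% and 0.894% of regions in the hair replicates, 0.530% and 1.15% in the non-hair replicates, and 0.666% and 1.19% in the INTACT root tip replicates. Of the regions of INTACT root tip replicate 1 that were nested in both sucrose lists and matched by a nested region of replicate 2, 119 lay in the window and 10 elsewhere. Of those 10, 4 lay just past its right limit, from 3499963 to 3501977, which leaves 6 on the rest of the 5 chromosomes.

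The extra covered length of the sucrose lists had 3 parts. Against the 6 other lists it came to 31861 to 37154 bp. Flanks beyond the outermost enclosed region made up 71.3% to 83.1% of it. Gaps between regions that a single sucrose region spanned made up 14.2% to 18.1%. Sucrose regions with no partner made up 0% to 12.8%. Between 18.3% and 22.1% of the 104 sucrose regions held 2 or more regions of the other list, with at most 6. On the rest of chromosome 2 that share was 0.306% to 1.38%. In the other direction, 23 to 27 bp of INTACT root tip replicate 1 in the window lay outside the sucrose regions, and 1092 to 1096 bp of replicate 2.

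The locus of greatest extent showed both flanks and spanned gaps. It ran from 3330766 to 3335943 on chromosome 2 and was 1 sucrose region of 5169 bp in replicate 1 and of 5178 bp in replicate 2. Hair replicates had 6 and 5 regions there that covered 4080 and 3885 bp, and non-hair replicates 6 and 5 regions that covered 4418 and 3914 bp. INTACT root tip replicates had 6 regions each, which covered 4295 and 4396 bp. The next locus, from 3312430 to 3315367, was 1 region of 2938 and 2903 bp in the sucrose replicates and 2 regions in every other list. In those 6 lists its larger region, of 2260 to 2346 bp, was the widest of the window. The third, from 3398357 to 3401163, was 1 region of 2769 and 2807 bp in the sucrose replicates and 3 regions in every other list, which covered 1914 to 2040 bp.

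Loci in the window were shared among lists far more often than elsewhere. Overlapping regions of the 8 lists joined into 108 loci, of which 91 (84.3%) were held by all 8 lists. On the rest of chromosome 2 all 8 lists held 1416 of 10159 loci (13.9%), and over the 5 chromosomes 13.6%. Lists of different length limit this share outside the window, so it was also counted per list. In the shortest list, sucrose replicate 1, 87.5% of the window's regions overlapped a region of every other list. On the rest of the chromosome 76.4% did. In the longest, hair replicate 1, these shares were 87.4% and 17.0%.

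**Figure D4:**
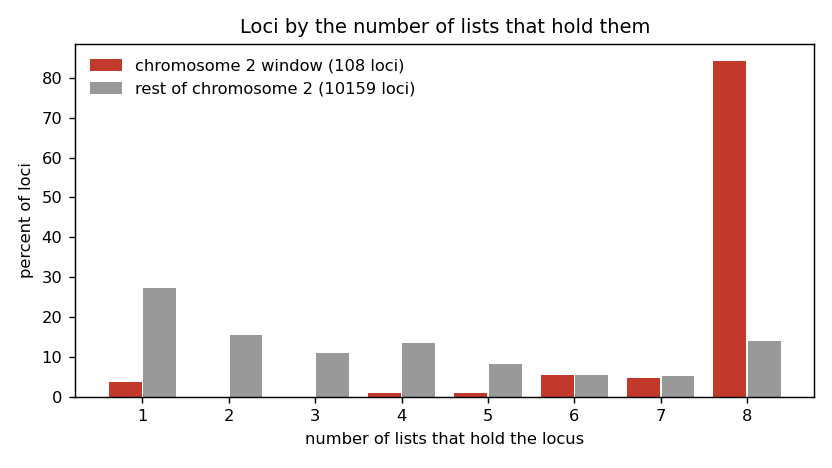
Percent of loci held by 1 to 8 of the Arabidopsis lists, for the 108 loci of the chromosome 2 window (red) and the 10159 loci of the rest of chromosome 2 (grey). In the window 84.3% of loci are in all 8 lists, and on the rest of the chromosome 13.9%.

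Of the 108 loci, 17 were not in all lists. INTACT root tip replicate 2 alone held 4 of them, from 3204695 to 3204905, 3216396 to 3216606, 3230881 to 3231145 and 3233203 to 3233577, all in the first 40 kb of the window. The other 13 were all in both sucrose lists and in non-hair replicate 1 and hair replicate 1, so that those 4 were the only loci of the window missing from a sucrose list. Among the 4 root tip lists, 6 of 108 loci (5.56%) were in both sucrose lists and neither INTACT list, beside 0.315% of loci on the 5 chromosomes. Such loci first drew attention to the window, so this share describes that choice and supports nothing further. With equal numbers of the widest regions the count was 47. That setting leaves sucrose replicate 1 whole and shortens the INTACT lists, and no share over the 5 chromosomes was computed for it. The 3 widest of the 6 loci ran from 3404629 to 3405261, from 3474621 to 3475231 and from 3295308 to 3295802. All 6 were also held by 2 to 4 of the epidermal lists. None of 108 was in both INTACT root tip lists alone, against 5.06% of loci on the 5 chromosomes. None of 132 epidermal loci in the window was confined to the hair lists (0.882% on the 5 chromosomes) or to the non-hair lists (0.269%).

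Overlap by length told replicates from other pairs mainly through the sucrose lists. The Jaccard overlap, the length shared by 2 lists as a percentage of their joint length, was 96.2% between the sucrose replicates in the window. It was 88.2% between the hair replicates, 87.6% between the non-hair replicates and 85.2% between the INTACT root tip replicates. Sucrose lists against the other 6 gave 56.3% to 62.3%. All 15 pairs among those 6 gave 82.0% to 89.7%, and the highest was hair replicate 1 with non-hair replicate 1, lists of different cell types. On the rest of chromosome 2 the sucrose replicates overlapped by 60.0%, and the 15 pairs ranged from 31.3% to 75.4%. In the root tip, pairs of different purification overlapped by 58.1% on average in the window and replicate pairs by 90.7%. The difference of -32.64 percentage points has a one-sided p = 0.33 over the 3 possible exact pairings. Over all ways to pair the 8 lists, replicate pairs were higher by 17.70 points with an exact one-sided permutation p = 0.0190, and 0.119 after adjustment. With equal numbers of the widest regions the difference was 28.47 points (exact one-sided permutation p = 0.0476).

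Edges of the same locus also agreed more closely between replicates in the window. In one-to-one replicate pairs the median distance between matching ends was 15.0 bp in sucrose, 15.0 bp in hair, 17.5 bp in non-hair and 16.0 bp in INTACT root tip lists. On the rest of chromosome 2 it was 24.0, 24.0, 29.0 and 52.0 bp in the same order of groups. In the window 90.9% to 99.0% of ends lay within 50 bp of each other, and on the rest of the chromosome 49.4% to 76.2%.

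Regions did not fill the window evenly. In 7 of the 8 lists its first 40 kb held no region, and INTACT root tip replicate 2 held only the 4 regions named above there. The first window region of the sucrose replicates started at 3244602 and 3244611. In the hair replicates it started at 3244700 and 3244691, in the non-hair replicates at 3244663 and 3244642, and in INTACT root tip replicate 1 at 3254885. The last region before the window ended between 3057196 and 3172448 in the 8 lists. At the right limit regions ran on without a break, with the last window region ending between 3499607 and 3499765 and the next starting between 3499843 and 3500003.

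Past its first 40 kb, the window was covered by regions for 32.5% and 32.8% in the sucrose replicates, 18.5% and 18.4% in hair, 20.2% and 19.1% in non-hair and 18.9% and 19.2% in INTACT root tip replicates. In the 300 kb before the window the covered share was 0.519% to 1.53% in 7 lists and 5.39% in INTACT root tip replicate 2. In the 300 kb after it, the share was 4.28% to 10.2%, but regions there were unevenly spread. In sucrose replicate 1 the 10 kb from 3610001 to 3620000 were covered for 59.9%. The 10 kb from 3620001 to 3630000 were covered for 73.7%, more than any bin of the window in that list. The fullest 10 kb of the window was the bin from 3330001 to 3340000 in all 8 lists, where covered share was 67.9% and 68.0% in the sucrose replicates and 52.2% to 58.0% in the others. The longest stretch past 3244602 without a region in any list ran from 3245556 to 3254700, 9145 bp.

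Among 393 nuclear windows of 300 kb, this one ranked first by covered share in both sucrose lists. There it was covered for 28.1% in replicate 1 and 28.3% in replicate 2, while the next highest window reached 7.47% in sucrose replicate 1 and 7.41% in replicate 2. It ranked 200 and 8 in the hair replicates, 178 and 1 in the non-hair replicates, and 4 and 1 in the INTACT root tip replicates. The ranks of 200 and 178 belong to the 2 longest lists, in which the median window was covered for 16.1% and 16.9%. Attention came to this window through regions confined to sucrose lists, so its sucrose ranks partly describe that choice.

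The mitochondrial sequence itself carried 2 kinds of region in all 4 root tip lists. Most were short and separate as in the chromosome 2 window, but 4 long stretches were covered almost without a break. The sequence is 366924 bp long up to its last region end. The long stretches ran from 25 to 45008, from 182733 to 210610, from 283377 to 290831 and from 343332 to 366924, a total of 104 kb. Each was 1 region in both sucrose replicates. In INTACT root tip replicates 1 and 2 the first was 3 regions each, and the second was 2 regions in replicate 1 and 1 in replicate 2. The breaks there were 60 to 103 bp long, at about the same 2 places of the first stretch in both replicates. The lowest covered share of a long stretch in any list was 96.6%, and the starts and ends of a stretch differed by at most 201 bp among the 4 lists.

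**Figure D5:**
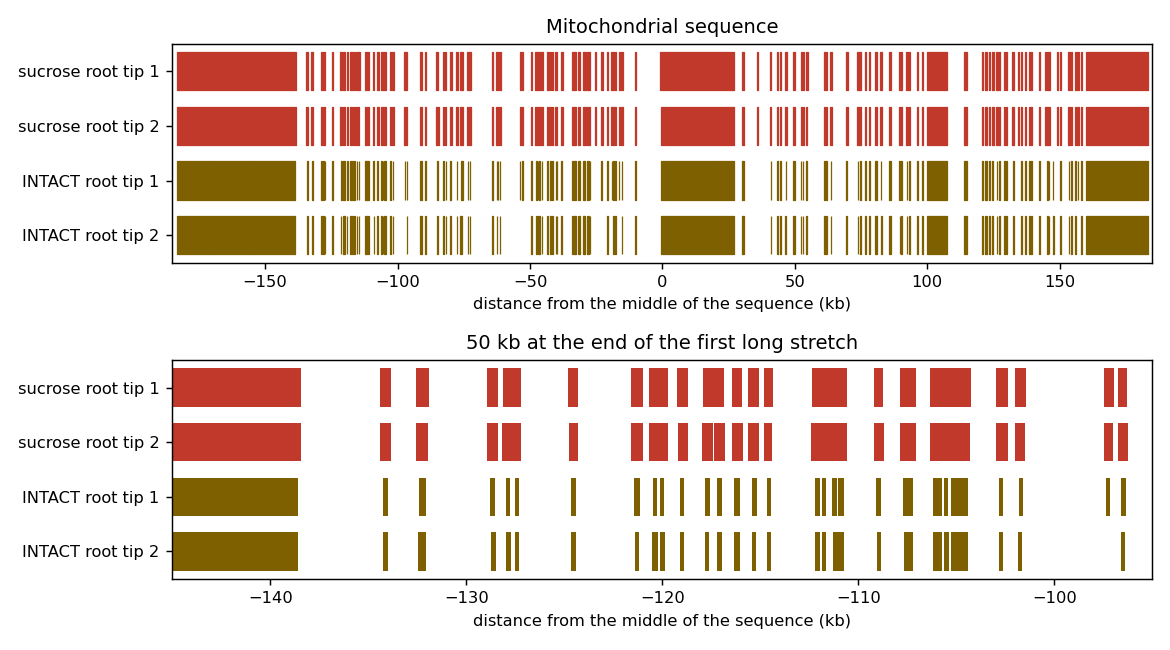
Regions on the mitochondrial sequence in the 4 root tip lists (rows, sucrose on top) against distance from the middle of the sequence in kb; bars in the upper panel have a thin outline so that narrow regions stay visible. The 4 long stretches, 104 kb together, are filled in all lists, and the lower panel shows the short regions after the first of them, wider in the sucrose lists.

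The long stretches were already covered for 96.6% or more in every list, so their covered length had almost no room to differ. Their sucrose ends still reached farther in most cases. The first stretch ended at 45008 and 45007 in the sucrose replicates, against 44872 and 44890 in the INTACT root tip replicates. The second started at 182733 and 182754 in the sucrose replicates, against 182934 and 182885 in the INTACT root tip replicates. Regions of 5 kb and more covered 103809 and 103867 bp in the sucrose replicates, against 102842 and 102998 bp in the INTACT root tip replicates, a 1.01-fold difference. Regions under 5 kb covered 70197 and 70695 bp in the sucrose replicates, against 37080 and 34965 bp in the INTACT root tip replicates, a 1.96-fold difference. The exact permutation p was 0.33 for both, the smallest possible. Their number was 111 and 111 in the sucrose replicates, against 125 and 114 in the INTACT root tip replicates. With equal numbers of the widest regions, the log2 difference in covered length of regions under 5 kb was 2.21, against 0.97 with whole lists. Median width of these short regions was 550 bp in both sucrose lists, against 269 and 264 bp. The limit of 5 kb was set after the widths were seen. For all mitochondrial regions together, sucrose lists covered 1.25-fold the length of the INTACT lists (exact permutation p = 0.33), at a 1.37-fold mean width and a 0.914-fold number (p = 0.33 each, exact). With equal numbers of the widest regions, these last 2 turned to log2 differences of -0.98 and 1.53.

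Short mitochondrial regions behaved pair by pair as those of the window did. In 89 to 92 one-to-one pairs, sucrose regions were the wider in 100%, with median extensions of 136 to 149 bp at the left end and 125 to 136 bp at the right end. The median log2 width ratio was 0.96 to 1.01 on mitochondria, 0.88 to 0.98 in the window, and -0.68 to -0.40 on the rest of chromosome 2. In INTACT root tip replicates 1 and 2, 129 of 132 and 116 of 120 mitochondrial regions were nested in both sucrose lists. Flanks made up 80.4% to 85.4% of the extra length in short regions, and spanned gaps 5.46% to 7.89%. The 263 kb outside the long stretches were covered for 26.7% and 26.9% in the sucrose replicates, against 14.1% and 13.3% in the INTACT root tip replicates.

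In the sucrose lists both classes lacked the narrowest regions, and in the window the epidermal lists held few of them. Each list has a commonest width at or near its narrowest. In sucrose replicates 1 and 2 these are 150 and 140 bp, shared by 24.8% and 21.4% of all their regions. In the window and on mitochondria no sucrose region had that width, and the narrowest were 284 and 279 bp in the window and 308 and 321 bp on mitochondria. In INTACT root tip replicates 1 and 2 the commonest widths of 191 and 211 bp were shared by 22.6% and 34.5% of all regions. There they accounted for 11.4% and 24.0% of window regions and 18.2% and 35.8% of mitochondrial ones. In the hair replicates 17.5% and 19.3% of all regions had the commonest width, but only 1.48% and 1.57% of window regions. In the non-hair replicates these shares were 16.9% and 21.5% of all regions, and 2.26% and 3.10% of window regions.

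Most mitochondrial loci were in all 4 root tip lists. Of 116 loci, 104 (89.7%) were in all 4, 6 in 3 and 6 in 2. The same 4 lists all held 92 of 108 loci (85.2%) in the window and 25.6% of loci on the 5 chromosomes. The difference between mitochondria and the window was not tested. All 6 loci in 3 lists lacked INTACT root tip replicate 2. Both sucrose lists alone held 5 loci, from 158094 to 158452, 219123 to 219571, 317761 to 318264, 327943 to 328475 and 332387 to 332891. Both INTACT lists alone held 1, from 330904 to 331114, which is 211 bp wide. These are 4.31% and 0.862% of the 116 loci, beside 0.315% and 5.06% of loci on the 5 chromosomes. With equal numbers of the widest regions the counts were 72 and 0, and no share over the 5 chromosomes was computed for that setting. Replicate pairs on mitochondria had a mean Jaccard overlap of 96.3% and pairs of different purification 79.5%. The difference of -16.78 percentage points (one-sided p = 0.33 over 3 exact pairings) became -28.23 with equal numbers of the widest regions.

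Positions alone gave no clear shared order of regions between the mitochondrial sequence and the window. Sliding the short mitochondrial regions along the window in both orientations, with 80 bp allowed between centres, the best position matched 15 of 104 and 16 of 104 window regions in the sucrose replicates, and 18 of 123 and 19 of 125 in the INTACT root tip replicates. The next best position matched 14, 15, 17 and 16. The sucrose replicates differed in orientation and offset, while both INTACT root tip replicates had the opposite orientation at nearly the same offset, 3544468 and 3544460 bp. The longest gap between neighbouring regions was of like size in both classes of the sucrose lists, 9155 and 9162 bp in the window and 9154 and 9153 bp on mitochondria. In INTACT root tip replicates 1 and 2 it was 10000 and 21293 bp in the window and 10017 and 11800 bp on mitochondria. Sequence was not compared, since no genome of this build was used here.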

How the data were processed

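ATAC-seq regions were taken from 14 deposited lists of 3 columns (sequence, start, end), 1 list per sample. The authors deposited no score, height, p-value or read total with a region. Bowtie2, HOMER and the build TAIR10 are named in the submitters' processing notes, without versions. The lists' names give HOMER's region mode with a setting of 150, written mD150 for root tip lists and md150 for epidermal lists. Whether these are the same caller setting is not stated. Read filters, the treatment of reads with several placements and the removal of organelle reads are not given in the sources used here. Lists differ in length and in commonest width, and either can change the number and width of regions.

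The members and lists were chosen with earlier results of these data known, and attention came to the window after regions confined to sucrose lists were seen there. Regions overlapped when they shared 1 bp. Loci were joined extents of overlapping regions. Values per list were compared on the log2 scale with exact two-sided permutation tests over lists. Jaccard overlaps were compared in percentage points with exact one-sided permutations over the ways to pair lists. Both kinds were adjusted together by the Benjamini-Hochberg method over 25 tests, with 0.05 as threshold. Covered shares used 300 kb for the window and the last region end for other sequences. Named regions were the 3 loci of largest extent, the widest regions, the confined loci and the first and last regions of each class. Replicate numbers are shared between groups, but the labels do not say that they pair samples. Alternatives were a window from 3.25 Mb, any overlap cut at the limits, regions under 150 bp apart joined, equal numbers of the widest regions (11819), a reciprocal overlap of 50%, the replicate block and leaving out each list. The interval routines were tested on simulated lists. The gene table of TAIR10.1 was used for names only. Scripts ran under Python 3.11.15 with pandas 2.3.3, NumPy 2.4.6 and Matplotlib 3.10.9.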

Additional observations from a re-analysis of the deposited data

Results flagged for a closer look

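Chloroplast sequence was outside every comparison above and carried a signal in the 4 root tip lists. Each list held 2 chloroplast regions, which together covered 103 kb in the sucrose lists and 103 kb in the INTACT root tip lists (means of 2). The first ran from position 1 to 84542 and 84538 in sucrose replicates 1 and 2, and to 84493 and 84521 in INTACT root tip replicates 1 and 2. The second ran from 110057 to 128549 and from 110086 to 128561 in the sucrose replicates, and from 110118 to 128500 and from 110108 to 128492 in the INTACT root tip replicates. No region lay between them in any of the 4 lists. The epidermal lists name no chloroplast sequence.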

How the results depend on the processing

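Alternatives gave 222 values for 33 results, of which 202 kept the direction and side of the threshold, or the size, of the main value. Among the 202 are 18 replicate block values, which equal the main value by construction and could not turn. For 162 of the 214 values with a test the smallest possible p is above 0.05, so those could not change side. Apart from the block values, only their direction is informative. Joining regions under 150 bp apart turned the difference in number between hair and non-hair lists to 0.012 (main value -0.0005) and brought the window's median gap to -0.79 with an exact permutation p = 0.0312. Equal numbers of the widest regions turned more, since this drops the narrow regions of the long lists. In the window the number of regions became 0.75 (sucrose over INTACT root tip) and -1.03 (epidermal over INTACT root tip), and mean width became 0.45 (epidermal over INTACT root tip) and 0.073 (hair over non-hair). On mitochondria the number became 1.53, the number under 5 kb 1.75 and mean width -0.98. Under the same setting the window over the rest of chromosome 2 gave 0.71 for regions per 100 kb (exact permutation p = 0.0547) and -1.17 for the median gap (p = 0.00781). The covered length of regions under 5 kb on mitochondria became 2.21 (main value 0.97), and the Jaccard differences -28.23 on mitochondria and 28.47 over the 8 lists. Loci confined to sucrose lists then numbered 47 in the window and 72 on mitochondria, and those confined to INTACT root tip lists on mitochondria 0. These counts have no share over all loci beside them, and the setting leaves sucrose replicate 1 whole. A reciprocal overlap of 50% lowered the mean share of regions that overlap another list to 71.1% in the window (97.2% at 1 bp) and to 59.9% on mitochondria (96.8% at 1 bp).

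Leaving out 1 list moved the difference in number between hair and non-hair lists over -0.045 to 0.044, and that in covered length between epidermal and INTACT root tip lists over -0.044 to 0.012, so neither has a settled direction. Without 1 list, the log2 mean width of sucrose over INTACT root tip lists in the window was 1.00 to 1.03, and that of covered length 0.73 to 0.79.

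The labels do not say that replicate numbers pair samples across groups. With the number as a block, all 18 differences equal the main value by construction, since each group has 1 list per replicate number. For sucrose over INTACT root tip lists in the window these are 1.01 for mean width and 0.76 for covered length. The smallest p that 2 pairs allow in an exact sign permutation test is 0.5. Replicate 1 covered more of the window than replicate 2 in the hair and non-hair groups and less in the other 2. No value could be corrected for depth, and the cause of the wider sucrose regions was not tested.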
